A study of Mus musculus with 9 samples.

Results

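The collagen genes are the 44 genes whose mouse symbols have the form Col, a type number, the letter a and a chain number, out of 55401 features in the deposited table of counts. They were picked by symbol, with earlier results of these data known when the set was chosen. All 44 had counts and passed the filter on low counts. Messenger RNA of the ear was sequenced in 9 libraries from C57 mice, 3 in each of 3 groups. Control ears were treated with absolute ethyl alcohol, the MC903 group with MC903 (calcipotriol, a vitamin D analogue used on mouse skin as a model of atopic dermatitis), and the paeonol group with MC903 and paeonol, a phenol of peony and Cynanchum roots, at 200 mg/kg. There is no group given paeonol without MC903, so an effect of paeonol on untreated ears cannot be told apart from one on the MC903 response. The labels give no age, sex or duration, and they do not say whether the libraries of a group came from separate animals. All p-values therefore measure the spread between these libraries, which may be technical.

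Collagens are secreted or membrane proteins whose chains wind into a triple helix. Fibrillar collagens (types I, III and V in skin) form the fibrils of the dermis. Types II, IX, X and XI are grouped here as collagens of cartilage, of which the mouse ear holds a plate. Type IX, which coats type II fibrils and is a FACIT, is therefore counted with cartilage and not with the FACIT genes. Types II and XI, which form cartilage fibrils, are likewise not counted with the fibrillar genes. Type IV forms the network of basement membranes, in which types VII, XV, XVII and XVIII anchor or line the epidermis and vessels. FACIT collagens coat fibrils, type VI forms beaded filaments, type VIII short chain networks, and types XIII, XXIII and XXV span the cell membrane.

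The 3 pairs of type IV genes lie head to head in the mouse genome, each pair reading away from a shared start region. In the GENCODE M21 annotation of GRCm38 the 5′ ends of Col4a1 and Col4a2 overlap by 22 bp on chromosome 8, those of Col4a4 and Col4a3 are 71 bp apart on chromosome 1, and those of Col4a6 and Col4a5 are 1308 bp apart on chromosome X. The sequences below are shown because the 2 genes of each pair moved in the same direction in the data. The first is the whole stretch between Col4a4 and Col4a3 (RefSeq, GRCm38.p6, chr1:82586850-82586920, minus strand), and the second is the 250 bases before the start of Col4a6 (chrX:141474077-141474326, minus strand). Capitals mark the GC box, GGGCGG on either strand; none of the 5 motifs searched occurs between Col4a4 and Col4a3.

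Col4a4 to Col4a3: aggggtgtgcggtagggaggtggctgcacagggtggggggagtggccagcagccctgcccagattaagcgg

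Col4a6: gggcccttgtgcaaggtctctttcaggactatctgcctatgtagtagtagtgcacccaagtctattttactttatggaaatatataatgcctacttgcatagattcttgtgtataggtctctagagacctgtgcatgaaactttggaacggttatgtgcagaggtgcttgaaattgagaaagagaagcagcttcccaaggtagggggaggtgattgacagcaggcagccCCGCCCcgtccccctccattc

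The next 3 windows, of 250 bases before the start, belong to genes of 3 classes, of which Col3a1 and Col7a1 fell and Col23a1 rose in MC903. They are Col3a1, an abundant dermal fibrillar gene (chr1:45311288-45311537, plus strand), Col7a1, the anchoring fibril gene (chr9:108953336-108953585, plus strand), and Col23a1, a membrane-spanning collagen (chr11:51289670-51289919, plus strand). Capitals mark the TATA box TATAAA in Col3a1, the CCAAT box (read as ATTGG on the minus strand), a nuclear receptor half-site (AGGTCA, read as TGACCT) and the GC box in Col7a1, and the same half-site and a GC box (read as CCGCCC) in Col23a1.

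Col3a1: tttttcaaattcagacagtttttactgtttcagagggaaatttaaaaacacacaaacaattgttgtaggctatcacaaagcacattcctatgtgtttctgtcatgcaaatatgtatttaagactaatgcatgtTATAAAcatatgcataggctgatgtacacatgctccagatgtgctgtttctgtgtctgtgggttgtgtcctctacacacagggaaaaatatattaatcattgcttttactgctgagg

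Col7a1: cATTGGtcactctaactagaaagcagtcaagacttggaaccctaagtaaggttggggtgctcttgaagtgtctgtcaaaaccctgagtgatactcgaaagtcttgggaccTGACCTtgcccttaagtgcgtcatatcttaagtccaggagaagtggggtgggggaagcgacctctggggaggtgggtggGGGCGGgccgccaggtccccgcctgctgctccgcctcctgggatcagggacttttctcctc

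Col23a1: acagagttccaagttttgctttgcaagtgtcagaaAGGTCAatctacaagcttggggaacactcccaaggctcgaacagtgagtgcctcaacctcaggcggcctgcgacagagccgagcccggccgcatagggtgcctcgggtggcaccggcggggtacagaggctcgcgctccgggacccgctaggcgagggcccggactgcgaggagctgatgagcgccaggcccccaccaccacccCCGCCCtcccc

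RefSeq windows were matched for 35 of the 44 genes (38 windows, since some genes have several starts), and both strands were searched. The GC box was in 57.9% of the collagen windows against 32.7% of all 32851 windows of this length, and the median GC content was 59.0% against 52.4%. Shares for the TATA box (13.2% against 12.4%) and the CCAAT box (34.2% against 33.8%) differed by under 1 percentage point. The half-site AGGTCA was in 21.1% of collagen windows against 14.0% of all, and its variant GGTTCA in 13.2% against 8.85%. No collagen window held 2 of these half-sites in the same orientation 3 bases apart, the arrangement known for the vitamin D receptor, and 0.0152% of all windows did. With only 5 matches among all 32851 windows, a match in 38 windows was very unlikely. Its absence therefore says nothing about the collagen genes. These matches describe letters in the windows and are not measured binding sites.

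Collagen messenger RNA was much scarcer in MC903 ears than in control ears and intermediate in ears given paeonol as well. In the 3 control libraries 1.29%, 1.38% and 1.32% of all counts fell in collagen genes, in the MC903 libraries 0.455%, 0.552% and 0.436%, and in the paeonol libraries 0.815%, 0.759% and 0.625%. The 3 groups did not overlap in this share. In bulk tissue, fewer cells of a type and less RNA per cell cannot be told apart. Levels are given below as CPM, counts relative to the library total after scaling between libraries, and changes as log2 changes with their standard errors.

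In MC903 against control 33 of the 44 collagen genes fell, 6 rose and 5 did not pass the test (edgeR's quasi-likelihood test, Benjamini-Hochberg adjusted p under 0.05 over all genes tested). The background was high: 46.8% of all 21925 genes tested passed, 23.8% as lower and 23.0% as higher. The median log2 change was -1.43 over the collagen genes and -0.0155 over all genes. In the paeonol group against the MC903 group 25 rose, 5 fell and 14 did not pass, against 29.7% of all genes called (15.3% higher, 14.3% lower), with medians of 0.67 and 0.0024. In the paeonol group against control 28 were lower, 2 higher and 14 did not pass, against 30.9% of all genes (16.3% higher, 14.5% lower), with medians of -0.62 and -0.0347. The libraries of the groups compared did not overlap in CPM for 41 of the 44 in the first comparison (58.1% of all genes), 32 in the second (43.9%) and 37 in the third (46.4%). These comparisons share groups of libraries, so each is given by its own values and they do not support one another.

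**Figure D1:**
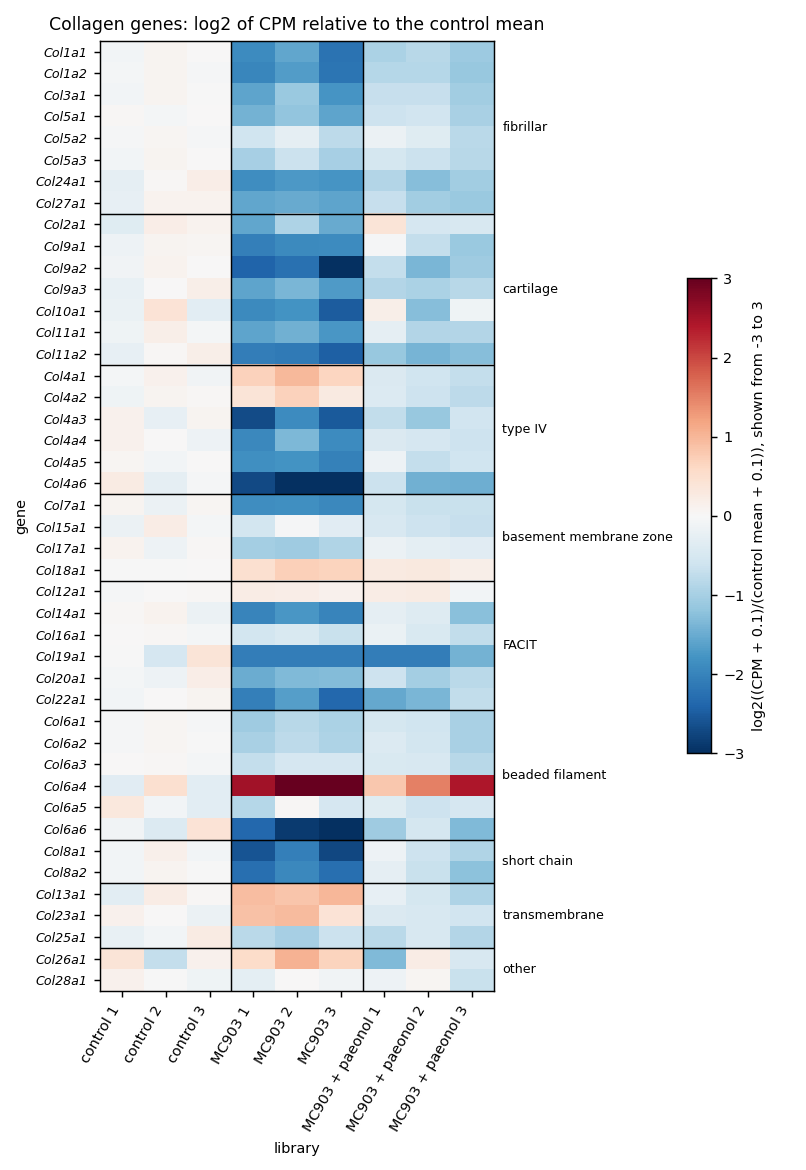
Level of each collagen gene (rows, grouped by class) in each of the 9 libraries (columns), as log2 of CPM over the mean of the control libraries, with a small constant added to both; blue is lower and red higher, and colours stop at the ends of the scale. Most rows are dark blue in the 3 MC903 libraries and lighter blue in the 3 paeonol libraries. The rows red in MC903 include Col4a1, Col4a2, Col18a1, Col13a1, Col23a1 and Col6a4, which were called higher, and Col26a1, which was not called.

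As a class, fibrillar collagens held the largest share of collagen counts per length, and all 8 fell in MC903 (median log2 change -1.51). Per kilobase of the principal transcript the control means were 511 CPM for Col3a1, 412 for Col1a2 and 311 for Col1a1, but 0.813 for Col24a1. Col17a1, of the basement membrane zone, stood at 274 in control. Its means of 138 in MC903 and 227 with paeonol were above those of Col1a2 (109 and 216) and Col1a1 (85.2 and 161). Col1a1, a chain of type I collagen, the main protein of dermis (chr11:94936224-94953042), stood at 1730, 1960 and 1840 CPM in control, 499, 620 and 397 CPM in MC903, and 954, 1040 and 867 CPM in the paeonol group. Every MC903 library lay below every paeonol library, and every paeonol library below every control library. Its log2 change was -1.87 ± 0.14 in MC903 against control (adjusted p = 5.7e-06), 0.91 ± 0.14 in paeonol against MC903 (adjusted p = 0.001) and -0.95 ± 0.14 in paeonol against control (adjusted p = 0.00087).

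Col1a2, the partner chain of type I (chr6:4504814-4541544), stood at 2110, 2330 and 2170 CPM in control, 572, 694 and 482 CPM in MC903 and 1230, 1230 and 1010 CPM with paeonol. The groups stood in the same order without overlap. Its log2 changes were -1.92 ± 0.13, 0.99 ± 0.12 and -0.93 ± 0.12 in the 3 comparisons in the order above (adjusted p = 1.43e-06, 0.000223 and 0.000402). Col3a1, the chain of type III, which accompanies type I in extensible tissue (chr1:45311538-45349706), stood at 2690, 3020 and 2810 CPM in control, 946, 1310 and 830 CPM in MC903 and 1760, 1760 and 1370 CPM with paeonol. The groups did not overlap, but the second MC903 library and the third paeonol library were close. Col3a1 fell by 1.47 ± 0.17 on the log2 scale in MC903 (adjusted p = 9.26e-05) and rose by 0.67 ± 0.16 with paeonol (adjusted p = 0.0142). The latter call ended without the first MC903 library (adjusted p = 0.0508) or without the first paeonol library (adjusted p = 0.0553). Against control it stayed lower in the paeonol group by a log2 change of -0.80 ± 0.16 (adjusted p = 0.00579). Col3a1 shares 141 bp of exon with Gm47302 on the same strand, so its counts could be split between them.

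The chains of type V, which sit inside type I fibrils and limit their diameter, did not move alike. Col5a1 stood at 234, 218 and 231 CPM in control, 85.7, 100 and 75.7 CPM in MC903, and 149, 154 and 116 CPM with paeonol, with log2 changes of -1.39 ± 0.12, 0.68 ± 0.12 and -0.71 ± 0.12, all past the test. It shares 99 bp of exon with 2810430I11Rik and 113 bp with Gm13372, both on the opposite strand, which leaves its values uncertain to that extent. Col5a2 stood at 208, 223 and 209 CPM in control, 140, 176 and 124 CPM in MC903, and 188, 165 and 121 CPM with paeonol. The MC903 and paeonol libraries overlapped. Its log2 change in MC903 was -0.54 ± 0.17 (adjusted p = 0.0264). That call ended without any 1 of the 3 control libraries (adjusted p = 0.0592, 0.0764 and 0.0586), without the first or the third MC903 library (adjusted p = 0.0824 and 0.0833) and with no filter on low counts (adjusted p = 0.0611). In paeonol against MC903 Col5a2 did not pass, with a log2 change of 0.10 ± 0.17 (adjusted p = 0.701). In paeonol against control its log2 change of -0.43 ± 0.17 missed the threshold (adjusted p = 0.0834). It passed with scaling by library totals alone (adjusted p = 0.0345), in DESeq2 (adjusted p = 0.0227), with replicate numbers as a block (adjusted p = 0.0243), without the second MC903 library (adjusted p = 0.0488) or without the first paeonol library (adjusted p = 0.0348).

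Col5a3 stood at 90.8, 102 and 96.5 CPM in control, 48.3, 61.9 and 48.1 CPM in MC903, and 67.3, 61.2 and 54 CPM with paeonol. MC903 and paeonol libraries overlapped again: Col5a3 fell in MC903 (log2 change -0.87 ± 0.11) and was lower than control with paeonol (-0.66 ± 0.11), while paeonol against MC903 did not pass (0.21 ± 0.11, adjusted p = 0.189; 0.0286 without the second MC903 library). The ratio of Col5a1 to Col5a2 counts ranged from 0.981 to 1.12 in control, from 0.568 to 0.611 in MC903 and from 0.793 to 0.953 with paeonol, without overlap. The minor fibrillar genes Col24a1 and Col27a1 fell in MC903 (-1.85 ± 0.21 and -1.55 ± 0.12), rose with paeonol against MC903 (0.76 ± 0.21 and 0.61 ± 0.11) and were lower than control with paeonol (-1.09 ± 0.20 and -0.94 ± 0.11). Without the first paeonol library the rise of Col24a1 did not pass (adjusted p = 0.0604). Of the 8 fibrillar genes 6 rose with paeonol against MC903 and none fell (median 0.67), and 7 were lower than control with paeonol (median -0.87).

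Markers of fibroblasts, which make most dermal collagen, moved in both directions. Shares of all genes called, to set beside counts in this and the other marker lists, were 46.8%, 29.7% and 30.9% in the 3 comparisons. Of the 12 markers 7 fell and 3 rose in MC903 (median -0.58), 4 fell and 2 rose in paeonol against MC903 (median -0.05), and 6 were lower in paeonol against control (median -0.55). Their summed level ranged from 3280 to 3760 CPM in control, 2170 to 2490 CPM in MC903 and 1830 to 2600 CPM with paeonol, so that the MC903 and paeonol ranges overlapped while those of type I collagen did not. Decorin (Dcn), a small proteoglycan of dermal fibroblasts, fell in MC903 (log2 change -0.72, adjusted p = 0.000538) and had a log2 change of -0.06 in paeonol against MC903 (adjusted p = 0.742). The part of fibroblast number in the collagen changes was not tested.

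Cartilage collagens all fell in MC903 (7 of 7, median -1.96) and all rose with paeonol against MC903 (7 of 7, median 1.18), while 4 of 7 stayed lower than control with paeonol (median -0.64). Per kilobase of the principal transcript, control means were 5.23 CPM for Col2a1, 4.44 for Col10a1, 7.99 for Col11a1 and 13.5 for Col11a2. Those of Col9a1, Col9a2 and Col9a3 were 7.87, 9.04 and 26.9 CPM. How much of this RNA came from cartilage was not tested. Col2a1, the chain of the main cartilage fibril, stood at 20.6, 30.8 and 28.7 CPM in control, 9, 14.1 and 9.24 CPM in MC903 and 35.2, 18.8 and 19 CPM with paeonol. The first paeonol library was the highest of all 9, and the other paeonol libraries lay below every control library. Col2a1 fell in MC903 (-1.31 ± 0.30, adjusted p = 0.00674) and rose with paeonol (1.18 ± 0.30, adjusted p = 0.0184; 0.0648 without the first and 0.0733 without the third MC903 library), and paeonol against control did not pass (-0.13 ± 0.29, adjusted p = 0.784).

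Col10a1, the collagen of hypertrophic chondrocytes, stood at 12, 18.6 and 11.2 CPM in control, 3.62, 3.97 and 2.40 CPM in MC903, and 15.7, 5.63 and 12.8 CPM with paeonol. It varied most between the paeonol libraries. MC903 libraries were all below the others, and its log2 changes were -2.06 ± 0.39 in MC903 (adjusted p = 0.00204), 1.77 ± 0.39 with paeonol against MC903 (adjusted p = 0.00802) and -0.29 ± 0.37 against control (adjusted p = 0.608). Col11a1, a chain of type XI that nucleates cartilage fibrils, stood at 55.8, 69.1 and 58.9 CPM in control, 20.4, 22.5 and 18.3 CPM in MC903, and 51.1, 33.1 and 33.5 CPM with paeonol. It fell (-1.59 ± 0.17) and rose (0.94 ± 0.17), and stayed lower than control with paeonol (-0.64 ± 0.17, adjusted p = 0.0157). This last call ended without the second control library (adjusted p = 0.0556), the second paeonol library (0.0569) or the third paeonol library (0.0622).

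Its partner chain Col11a2 stood at 61.7, 74.9 and 82.0 CPM in control, 17.2, 16.8 and 13.3 CPM in MC903, and 32.9, 27.5 and 29.9 CPM with paeonol. The groups were well apart. Its log2 changes were -2.21 ± 0.13 (adjusted p = 4.54e-07), 0.93 ± 0.13 (adjusted p = 0.000255) and -1.27 ± 0.12 (adjusted p = 5.16e-05), the last the most negative of the collagen calls in paeonol against control. The ratio of Col11a1 to Col11a2 counts was 0.718 to 0.923 in control and higher in MC903 (1.19 to 1.37) and paeonol libraries (1.12 to 1.55).

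Among the chains of type IX, which coats type II fibrils, Col9a1 stood at 27.1, 31.8 and 31.6 CPM in control, 7.22, 7.93 and 8.08 CPM in MC903 and 29.7, 18.4 and 14.0 CPM with paeonol. The first paeonol library lay within the control range and the others between the groups. Col9a1 fell by 1.96 ± 0.24 and rose by 1.42 ± 0.23 on the log2 scale. Its change against control with paeonol missed the threshold (-0.54 ± 0.23, adjusted p = 0.0997; 0.00106 without the first paeonol library, 0.0488 with library totals alone and 0.0452 in DESeq2). Col9a2 and Col9a3 fell in MC903 (-2.55 ± 0.22 and -1.55 ± 0.11), rose with paeonol (1.52 ± 0.22 and 0.66 ± 0.11) and were lower than control with paeonol (-1.03 ± 0.21 and -0.89 ± 0.11). Col9a3 shares 234 bp of exon with Tcfl5 on the opposite strand, and with the use of strand in counting not given in the sources used here, its values are uncertain to that extent.

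Chondrocyte markers other than collagens are given beside these changes. Of 12 markers Matn1 was listed at 0 in every library, and of the 11 tested 8 fell in MC903 (median -1.35), 7 rose with paeonol against MC903 (median 0.86) and 5 were lower in paeonol against control (median -0.75; 8 without the first paeonol library). Sox9, the transcription factor of the chondrocyte lineage that hair follicles also express, stood at 47.3, 49.4 and 47.6 CPM in control, 16.5, 19.6 and 20.4 CPM in MC903, and 36.0, 34.8 and 31.6 CPM with paeonol, without overlap. Matn3 was at 0 in all 3 MC903 libraries. Summed marker levels were 1120 to 1430 CPM in control, 653 to 900 CPM in MC903 and 761 to 1050 CPM with paeonol. Whether the amount of cartilage in the ear samples differed between groups was not tested.

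**Figure D2:**
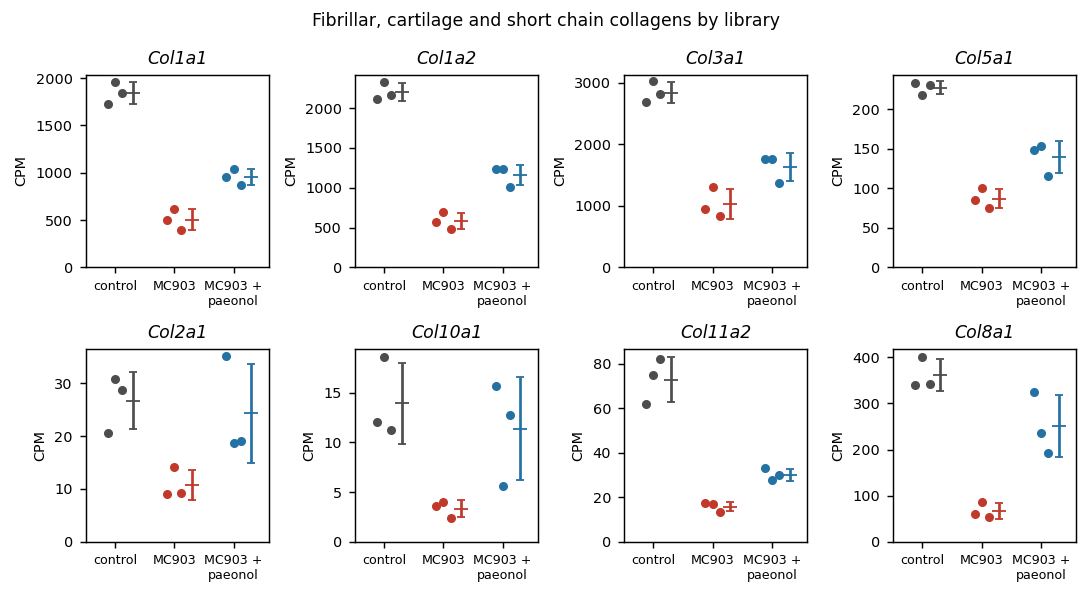
CPM of 4 fibrillar, 3 cartilage and 1 short chain collagen gene in each library (points) by group, with the mean and SD of the 3 libraries beside them; each axis starts at 0. The 3 MC903 points lie lowest in every panel, the paeonol points of Col1a1 (867 to 1040 CPM) lie between the other groups, and the paeonol points of Col2a1 and Col10a1 spread across the control range.

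Type IV collagen genes split into opposite directions. Col4a1 and Col4a2, the chains of the network found in nearly all basement membranes, vessels included, rose in MC903, and Col4a3, Col4a4, Col4a5 and Col4a6, the chains of tissue-restricted networks, fell. The median was -1.81. With paeonol against MC903 Col4a1 and Col4a2 fell and the other 4 rose (median 1.32), and 5 of 6 were lower than control with paeonol (median -0.58; 3 of 6 without the first control, the third control or the second paeonol library).

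Col4a1 (chr8:11198423-11312826) stood at 145, 166 and 141 CPM in control, 245, 297 and 235 CPM in MC903 and 112, 99.9 and 91.5 CPM with paeonol. The MC903 libraries were the highest and the paeonol libraries the lowest, below control. Its log2 changes were 0.78 ± 0.10 (adjusted p = 9.88e-05), -1.36 ± 0.11 (adjusted p = 1.02e-05) and -0.57 ± 0.10 (adjusted p = 0.00184). Col4a2 (chr8:11312805-11449287) had the same order, at 119, 139 and 134 CPM in control, 170, 210 and 157 CPM in MC903 and 98.7, 85.8 and 75.8 CPM with paeonol. Its rise in MC903 was smaller (0.45 ± 0.12, adjusted p = 0.0102) and did not pass with scaling by library totals alone (adjusted p = 0.125), while its falls with paeonol against MC903 (-1.04 ± 0.12) and against control (-0.59 ± 0.12) passed. Counts of Col4a1 per count of Col4a2 were 1.05 to 1.22 in control, 1.42 to 1.5 in MC903 and 1.14 to 1.21 with paeonol.

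Col4a5, which with Col4a6 makes a network of epidermal basement membrane (chrX:141475385-141689234), stood at 43.2, 38.9 and 41.7 CPM in control, 11.5, 11.8 and 10 CPM in MC903 and 37.3, 25.1 and 27.1 CPM with paeonol. Its log2 changes were -1.90 ± 0.14 (adjusted p = 1.54e-06), 1.43 ± 0.14 (adjusted p = 3.24e-05) and -0.47 ± 0.14 (adjusted p = 0.0213). The last call ended without the first or the third control library (adjusted p = 0.0663 and 0.0614) or the second or the third paeonol library (0.0896 and 0.0791). Every paeonol library lay between the MC903 and the control libraries.

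Col4a6 (chrX:141165403-141474076) stood at 71.2, 49.7 and 59.0 CPM in control, 9.06, 7.21 and 7.22 CPM in MC903 and 38.3, 22.2 and 21.6 CPM with paeonol. The groups were well apart, and its log2 changes were -2.94 ± 0.25, 1.81 ± 0.24 and -1.13 ± 0.23, all past the test. Counts of Col4a5 per count of Col4a6 were 0.607 to 0.782 in control, 1.26 to 1.64 in MC903 and 0.974 to 1.25 with paeonol. The ratio of Col4a1 to Col4a5, chosen after its values were seen, was 3.36 to 4.28 in control, 21.4 to 25.2 in MC903 and 3.01 to 3.99 with paeonol.

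Col4a3 and Col4a4, which make a network with Col4a5 that is best known from kidney, were scarce, with control levels of 5.18 to 6.82 CPM and 7.52 to 9.20 CPM. They fell in MC903 (-2.41 ± 0.27 and -1.73 ± 0.20) and rose with paeonol (1.60 ± 0.27 and 1.21 ± 0.20). In paeonol against control Col4a3 was lower (-0.81 ± 0.25, adjusted p = 0.031). This call ended in the blocked fit (0.0526), without the first or the third control library (0.094 each) or the first or second paeonol library (0.0644 and 0.116). Col4a4 missed the threshold there (-0.53 ± 0.19, adjusted p = 0.0567). It passed in 6 alternatives, among them DESeq2 (adjusted p = 0.0289) and the fit of the 2 groups alone (adjusted p = 0.0273). Col4a3 shares 563 bp of exon with C430014B12Rik on the opposite strand, which leaves its values uncertain.

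Endothelial markers were compared with the abundant type IV pair. Over all genes 46.8%, 29.7% and 30.9% were called in either direction in the 3 comparisons. Of 8 markers 1 rose and 2 fell in MC903 (median 0.10), all 8 fell with paeonol against MC903 (median -0.83) and all 8 were lower than control with paeonol (median -0.73). Their summed level was 296 to 351 CPM in control, 318 to 351 CPM in MC903 and 166 to 227 CPM with paeonol. Of 8 markers of mural cells, the muscle cells and pericytes of vessel walls, 2 rose and 2 fell in MC903 (median 0.14), 5 fell and 1 rose with paeonol against MC903 (median -0.47) and 6 were lower with paeonol against control (median -0.58), with sums of 453 to 474, 390 to 468 and 309 to 376 CPM in the 3 groups. The endothelial ranges of control and MC903 overlapped while those of Col4a1 did not, and the low levels of vessel markers and Col4a1 stood in the same paeonol libraries. Their part in the type IV changes was not tested.

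Of 4 further genes of the basement membrane zone 2 fell and 1 rose in MC903 (median -0.64), 2 rose and 1 fell with paeonol against MC903 (median 0.21), and 3 were lower and 1 higher than control with paeonol (median -0.44). Col7a1, the anchoring fibril collagen made mainly by keratinocytes (chr9:108953586-108984875), stood at 332, 277 and 325 CPM in control, 85.3, 86.8 and 81.9 CPM in MC903 and 215, 195 and 196 CPM with paeonol. The MC903 libraries were close together and lowest, and the groups did not overlap. Its log2 changes were -1.88 ± 0.08 (adjusted p = 8.21e-08), 1.25 ± 0.08 (adjusted p = 2.12e-06) and -0.63 ± 0.08 (adjusted p = 0.000159).

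Col17a1, the transmembrane collagen of hemidesmosomes in basal keratinocytes (chr19:47646344-47692094), stood at 1620, 1350 and 1530 CPM in control, 741, 715 and 807 CPM in MC903 and 1330, 1220 and 1180 CPM with paeonol. It fell in MC903 (-0.99 ± 0.08, adjusted p = 2.54e-06) and rose with paeonol against MC903 (0.72 ± 0.08, adjusted p = 6.67e-05). The small remaining difference of paeonol from control (-0.27 ± 0.08, adjusted p = 0.0231) did not pass without the first or the third control library (adjusted p = 0.0884 and 0.0708) or the second or the third paeonol library (adjusted p = 0.0809 and 0.0796).

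Col18a1, a heparan sulfate proteoglycan of basement membranes and the source of endostatin (chr10:77052178-77166548), went the other way, at 84.2, 83.5 and 85.5 CPM in control, 117, 138 and 134 CPM in MC903 and 102, 103 and 94.8 CPM with paeonol. It rose in MC903 (0.62 ± 0.07, adjusted p = 2.68e-05), fell with paeonol against MC903 (-0.37 ± 0.07, adjusted p = 0.002) and was higher than control with paeonol (0.25 ± 0.07, adjusted p = 0.0202). The last call ended with library totals alone (adjusted p = 0.441), without any 1 control library (0.0519, 0.0623 and 0.0502) and without the second paeonol library (0.0754).

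Col15a1, a related proteoglycan of vessel and muscle basement membranes, stood at 35.4, 47.2 and 38.5 CPM in control, 27.7, 39.6 and 31.7 CPM in MC903 and 28.8, 26.2 and 24.8 CPM with paeonol. Control and MC903 libraries overlapped and the change did not pass (-0.29 ± 0.14, adjusted p = 0.112; 0.019 with library totals alone and 0.0207 without the second MC903 library). Paeonol against MC903 did not pass either (-0.31 ± 0.14, adjusted p = 0.122; 0.0462 without the first MC903 library), and Col15a1 was lower than control with paeonol (-0.60 ± 0.14, adjusted p = 0.0073).

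Basal keratinocyte markers gave no single direction. Of 9 markers 3 rose and 4 fell in MC903 (median -0.02), 3 rose and 2 fell with paeonol against MC903 (median -0.04), and 4 were higher and 3 lower with paeonol against control (median 0.22; 1 higher with library totals alone). Their summed level, led by keratins, was 13900 to 15500 CPM in control, 20200 to 21400 CPM in MC903 and 19000 to 20400 CPM with paeonol. It was higher in MC903, where Col7a1 and Col17a1 were lowest. Krt14 rose in MC903 (log2 change 1.3) and Krt15, a keratin of basal and follicle stem cells, fell (-2.59, adjusted p = 4.92e-07) and rose with paeonol (1.29, adjusted p = 6.5e-05). The part of keratinocyte number in these changes was not tested.

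**Figure D3:**
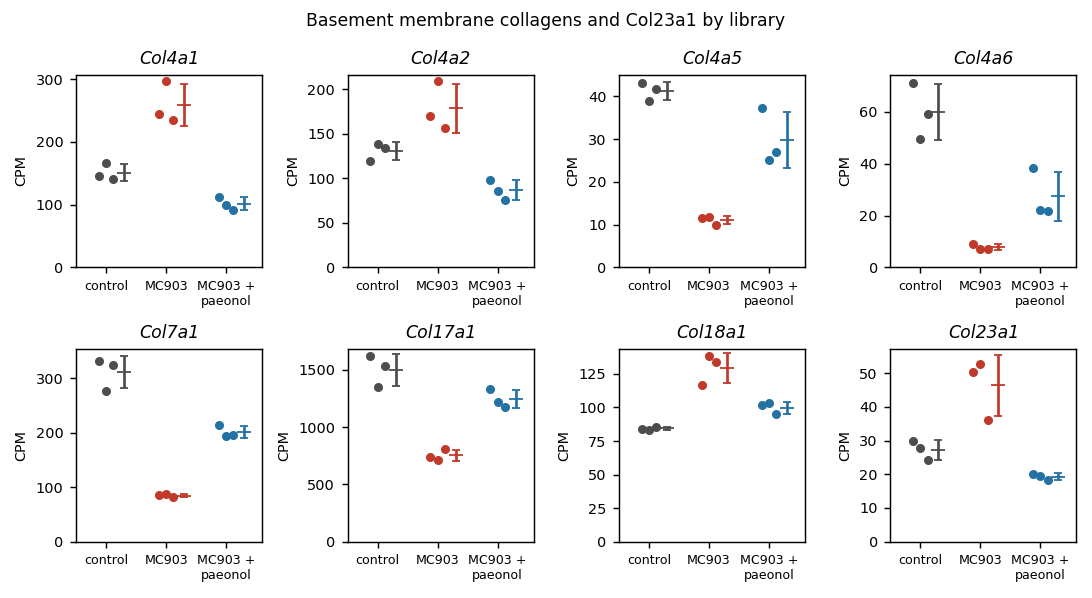
CPM of 4 type IV genes, 3 genes of the basement membrane zone and Col23a1 in each library (points) by group, with the mean and SD of the 3 libraries beside them; each axis starts at 0. Col4a1, Col4a2, Col18a1 and Col23a1 are highest in MC903, and Col4a5, Col4a6, Col7a1 and Col17a1 are lowest there.

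FACIT collagens fell in 5 of 6 cases in MC903 (median -1.65), 3 of 6 rose with paeonol against MC903 (median 0.70; 1 without the first MC903 library) and 3 were lower than control with paeonol (median -0.70; 5 with library totals alone). Col14a1, which binds fibrils in mature dermis, stood at 45.2, 47.5 and 39.2 CPM in control, 11.0, 13.1 and 11.0 CPM in MC903 and 36.3, 33.4 and 18.5 CPM with paeonol. The third paeonol library was low. It fell (-1.91 ± 0.23, adjusted p = 0.000109) and rose (1.33 ± 0.22, adjusted p = 0.00194). Paeonol against control missed the threshold (-0.58 ± 0.22, adjusted p = 0.0728) and passed with library totals alone (0.0357), as a block (0.0197), in DESeq2 (0.0195) and without the first paeonol library (0.0353).

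Col12a1, the FACIT of tissues under tension, differed from Col14a1 in staying near its control level, at 53.2, 54.3 and 55.6 CPM in control, 63.3, 62.0 and 59.8 CPM in MC903 and 63.7, 63.9 and 51.7 CPM with paeonol. The MC903 libraries were all above control, but the log2 change of 0.18 ± 0.08 did not pass (adjusted p = 0.0863; 0.0291 in the fit of the 2 groups alone, 0.0212 without the third paeonol library) and was -0.01 with library totals alone. Its changes with paeonol did not pass (-0.05 ± 0.08 against MC903, 0.14 ± 0.08 against control, the latter 0.0221 as adjusted p without the third paeonol library).

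Col22a1, a collagen of muscle and tendon junctions, stood at 16.4, 17.6 and 18.5 CPM in control, 4.13, 5.49 and 3.34 CPM in MC903 and 5.95, 6.66 and 10.4 CPM with paeonol. It fell in MC903 (-2.02 ± 0.23) and was lower than control with paeonol (-1.19 ± 0.22, adjusted p = 0.00215). Its rise with paeonol against MC903 (0.83 ± 0.23, adjusted p = 0.0171) ended without the first or the third MC903 library (0.055 and 0.0693) or the third paeonol library (0.063). Skeletal muscle markers fell in the same libraries: 11 of 12 in MC903 (median -1.73) and 12 of 12 in paeonol against control (median -1.21), with 3 higher and 1 lower in paeonol against MC903 (median 0.55). The 3 higher became 0 to 6 when 1 library was left out, 0 with no filter and 7 in DESeq2. Their sums were 4850 to 7290 CPM in control, 2220 to 2810 CPM in MC903 and 2640 to 3420 CPM with paeonol, and their part in the change of Col22a1 was not tested.

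Col16a1 fell in MC903 (-0.56 ± 0.12) and was lower than control with paeonol (-0.45 ± 0.11), and paeonol against MC903 did not pass (0.11 ± 0.12). Col20a1 fell in MC903 (-1.40 ± 0.17), rose with paeonol (0.58 ± 0.17, adjusted p = 0.0247; 0.0741 and 0.0519 without the first or second MC903 library and 0.0906 without the first paeonol library) and was lower than control with paeonol (-0.82 ± 0.17). Col20a1 shares 79 bp of exon with BX649560.1 on the same strand, so its counts could be split between them. Shorter exon overlaps of other collagen genes are not listed here. Col19a1, a collagen of muscle and nerve basement membranes, had few counts in control (0.320, 0.197 and 0.456 CPM) and none in any MC903 library, and it passed the test as lower in MC903. Against the floor of 12 counts per library it was at least 1.44-fold lower. With paeonol Col19a1 stood at 0, 0 and 0.0575 CPM, below that floor. Paeonol against control missed the threshold (adjusted p = 0.0512). It passed with library totals alone (0.0393), in the fit of the 2 groups alone (0.027) and without the third paeonol library (0.0438). Paeonol against MC903 did not pass (adjusted p = 0.305).

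Type VI collagen genes, which form beaded filaments around cells, went in both directions in MC903, and the abundant chains Col6a1, Col6a2 and Col6a3 showed no call in paeonol against MC903. Of 6 genes 4 fell and 1 rose in MC903 (median -0.73), 1 rose with paeonol (median 0.12), and 3 were lower and 1 higher than control with paeonol (median -0.62). Col6a1 stood at 480, 506 and 477 CPM in control, 234, 276 and 252 CPM in MC903 and 338, 325 and 249 CPM with paeonol. The third paeonol library fell within the MC903 range. It fell in MC903 (-0.94 ± 0.11), was lower than control with paeonol (-0.68 ± 0.11) and did not pass in paeonol against MC903 (0.26 ± 0.10, adjusted p = 0.0875; 0.00296 without the third paeonol library). Col6a2 had much the same changes (-0.90 ± 0.12, -0.62 ± 0.12 and 0.28 ± 0.12, the last with adjusted p = 0.114, or 0.00153 without the third paeonol library). Counts of Col6a1 per count of Col6a2 were 1.11 to 1.21 over all 9 libraries.

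Col6a3, the longest of the common type VI chains, stood at 365, 376 and 350 CPM in control, 220, 258 and 258 CPM in MC903 and 264, 260 and 203 CPM with paeonol. The MC903 range lay inside the paeonol range, and Col6a3 was lower than control in both (-0.57 ± 0.10 and -0.58 ± 0.10) with a log2 change of -0.02 ± 0.10 between them (adjusted p = 0.922). The rarer chains went apart. Col6a6 stood at 8.31, 6.76 and 11.9 CPM in control, 1.66, 1.15 and 0.490 CPM in MC903 and 4.26, 6.25 and 3.55 CPM with paeonol. It fell by 3.03 ± 0.42 and rose by 2.09 ± 0.41 on the log2 scale, among the largest of the collagen calls in both comparisons. In paeonol against control it missed the threshold (-0.94 ± 0.38, adjusted p = 0.0888), and it passed in counts divided by 4 (adjusted p = 0.0359), with library totals alone (0.0457), in the fit of the 2 groups alone (0.0287), in DESeq2 (0.0361) and without the third MC903 library (0.0262).

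Col6a4 had few counts in control (0.112, 0.279 and 0.118 CPM) and was detected in MC903 (1.45, 2.29 and 2.29 CPM) and with paeonol (0.371, 0.664 and 1.36 CPM). Its control counts were 7, 17 and 7, under the floor of 12 counts per library in the first and the third. Col6a4 shares 162 bp of exon with Gm47575 and 127 bp with Gm36993, both on the opposite strand, which leaves its values uncertain. Every MC903 library was above every paeonol library, and those above every control library. At these counts the ratio of MC903 to control was 11.5 (95% interval 5.58 to 27.6) and of paeonol to control 4.48 (2.02 to 11.3), both past the test. Paeonol against MC903 missed the threshold (-1.33 ± 0.49, adjusted p = 0.0615) and passed as a block (0.0352), in counts divided by 4 (0.0286), in DESeq2 (0.0436) and without the third paeonol library (0.0143). Col6a5 stayed low at 0.656, 0.476 and 0.389 CPM in control, 0.235, 0.518 and 0.327 CPM in MC903 and 0.371, 0.295 and 0.326 CPM with paeonol, with no call.

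The short chain collagens of type VIII, known from vessel walls, cornea and wounds, both fell in MC903 (median -2.29) and rose with paeonol against MC903 (median 1.69). Col8a1 (chr16:57624258-57754737) stood at 340, 401 and 342 CPM in control, 60.2, 87.2 and 54 CPM in MC903 and 324, 235 and 193 CPM with paeonol. The first paeonol library was close to control. It fell in MC903 (-2.43 ± 0.24, adjusted p = 9.98e-05) and rose with paeonol (1.90 ± 0.24, adjusted p = 0.000772). Against control it did not pass (-0.53 ± 0.23, adjusted p = 0.129; 0.0356 without the first paeonol library). Col8a2 fell (-2.16 ± 0.22) and rose (1.49 ± 0.22), and was lower than control with paeonol (-0.67 ± 0.21, adjusted p = 0.0401). The last of these calls ended in the fit of the 2 groups alone (0.0707), with no filter (0.0865), without any 1 control library (0.0718, 0.109 and 0.092), without the first or the third MC903 library (0.0597 and 0.0607) and without the second paeonol library (0.105).

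Of the 3 membrane-spanning collagens 2 rose and 1 fell in MC903 (median 0.76), 2 fell with paeonol against MC903 (median -1.27) and 2 were lower than control with paeonol (median -0.57). Col23a1, found in keratinocyte membranes (chr11:51289920-51583918), stood at 30.0, 27.7 and 24.2 CPM in control, 50.4, 52.7 and 36.1 CPM in MC903 and 20.2, 19.4 and 18.2 CPM with paeonol. It was highest in MC903 and lowest with paeonol, with log2 changes of 0.76 ± 0.13 (adjusted p = 0.000652), -1.27 ± 0.14 (adjusted p = 5.76e-05) and -0.50 ± 0.14 (adjusted p = 0.015; 0.0582 without the first control library and 0.0565 without the third paeonol library). Col13a1, known from neuromuscular junctions and cell adhesion sites, stood at 1.68, 2.46 and 2.16 CPM in control, 4.11, 3.84 and 4.32 CPM in MC903 and 1.77, 1.42 and 1.05 CPM with paeonol. The MC903 libraries stood above all others, and it rose in MC903 (0.96 ± 0.25, adjusted p = 0.00715) and fell with paeonol (-1.53 ± 0.25, adjusted p = 0.000875), while paeonol against control did not pass (-0.57 ± 0.25, adjusted p = 0.11; 0.048 with library totals alone).

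Col25a1, a neuronal collagen, fell in MC903 (-0.82 ± 0.19), did not pass in paeonol against MC903 (0.09 ± 0.20) and was lower than control with paeonol (-0.72 ± 0.19, adjusted p = 0.0148; 0.0742 without the third control library and 0.0573 without the third paeonol library). Schwann cell markers fell in the same groups, 7 of 8 in MC903 (median -1.25) and 8 of 8 in paeonol against control (median -0.94), and 4 rose and 1 fell in paeonol against MC903 (median 0.38). Their sums were 866 to 1040, 332 to 350 and 423 to 478 CPM in control, MC903 and paeonol libraries. Adipocyte markers, in which type VI and type IV collagen also occur, fell 8 of 8 in MC903 (median -1.60) and 7 of 8 in paeonol against control (median -1.15), with 5 higher and 1 lower in paeonol against MC903 (median 0.42) and sums of 308 to 401, 167 to 210 and 177 to 209 CPM. The part of nerve and fat in the collagen changes was not tested. Col26a1 and Col28a1, outside these classes, passed in no comparison. Col28a1 had log2 changes of -0.13 ± 0.18 in MC903, -0.09 ± 0.18 in paeonol against MC903 and -0.22 ± 0.18 in paeonol against control. Col26a1, near 1 CPM, passed as lower in paeonol against MC903 in counts divided by 4 (adjusted p = 0.0444) and without the second paeonol library (0.0312).

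**Figure D4:**
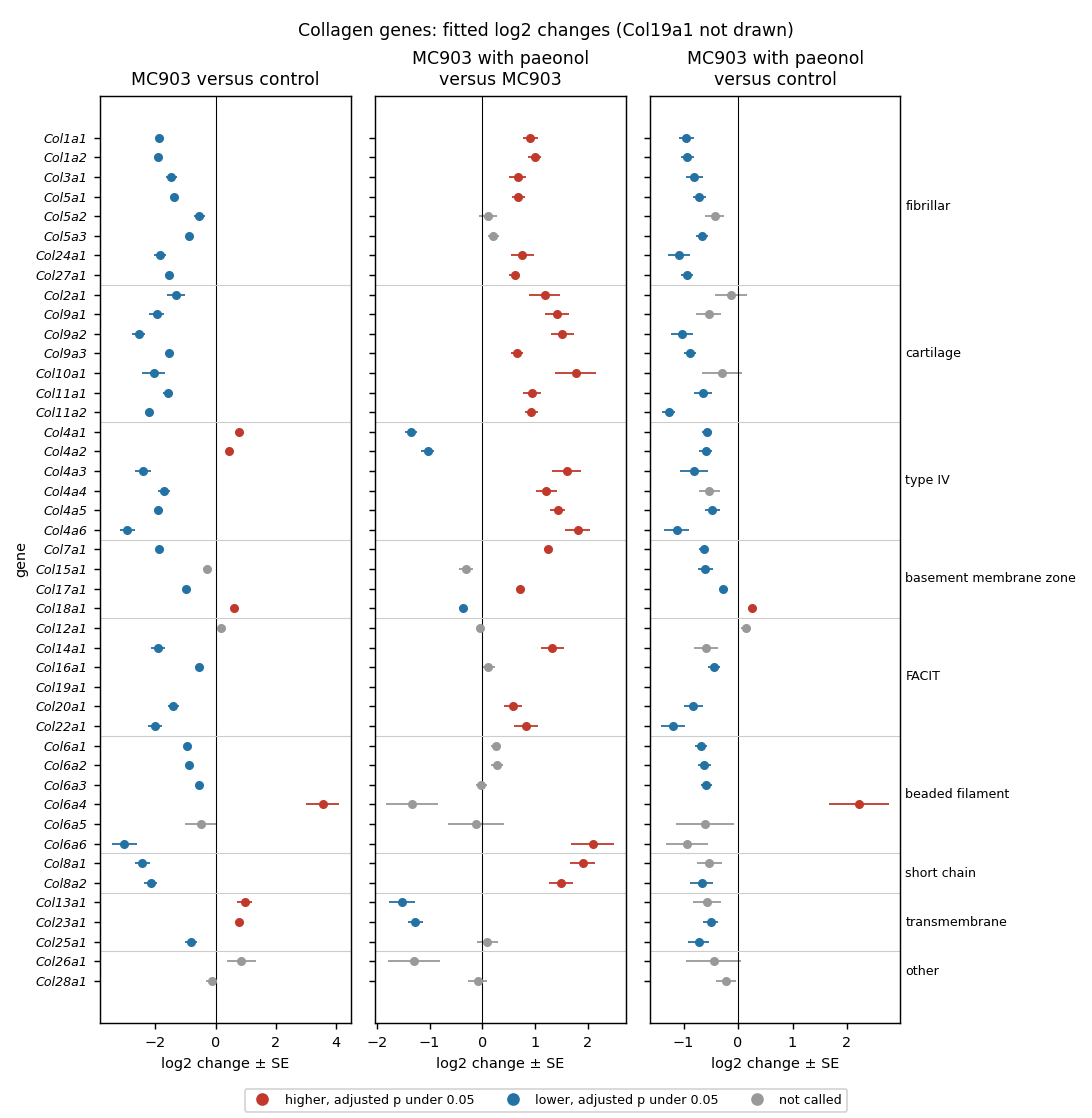
Fitted log2 change with its standard error (x axis) for 43 collagen genes (y axis, by class) in the 3 comparisons, coloured by call; Col19a1, with no counts in MC903, is not drawn. The points called lower in MC903 against control outnumber those called higher (Col4a1, Col4a2, Col18a1, Col6a4, Col13a1 and Col23a1), and in paeonol against MC903 the 5 points called lower are Col4a1, Col4a2, Col18a1, Col13a1 and Col23a1.

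The make-up of the collagen messenger RNA, as shares of counts per kilobase within each library, does not depend on scaling between libraries. The shares of a library sum to the whole, so a class can gain share while its genes fall. Fibrillar genes held 59.2 to 62.1% in control, 43.0 to 51.3% in MC903 and 52.8 to 56.0% with paeonol. The ranges did not overlap, and paeonol lay between the others. Type IV genes held 2.69 to 2.78% in control, 7.70 to 7.87% in MC903 and 2.6 to 3.03% with paeonol. The paeonol range enclosed that of control, although 5 of 6 type IV genes were called lower than control with paeonol. In MC903 Col4a1 alone held 4.31 to 4.37% of the whole. Genes of the basement membrane zone held 13.3 to 16.6%, 17.2 to 23.3% and 19.2 to 22.1% in the 3 groups, and here the paeonol libraries lay within the MC903 range. Most of this share was Col17a1 alone, at 10.9 to 13.8%, 12.7 to 18.1% and 15.8 to 18.3%. Cartilage genes held 3.04 to 3.64% in control, 2.32 to 2.47% in MC903 and 2.64 to 3.55% with paeonol. Short chain genes held 3.70 to 4.11%, 1.66 to 2.02% and 3.71 to 5.08%. Beaded filament genes held 11.8 to 12.1%, 15.2 to 17.7% and 11.5 to 12.8%. FACIT genes held 1.78 to 1.89%, 2.58 to 2.90% and 2.06 to 2.34%, and transmembrane genes held 0.360 to 0.380%, 1.15 to 1.36% and 0.382 to 0.421%. The FACIT share was thus higher in MC903 than in control, although 5 of 6 FACIT genes fell there.

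**Figure D5:**
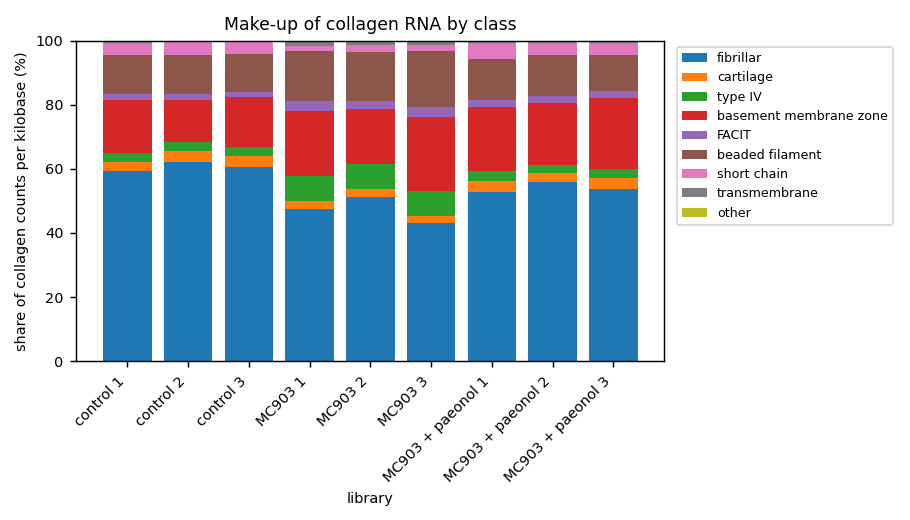
Share of collagen counts per kilobase of principal transcript (y axis, percent) held by each class in each of the 9 libraries (x axis), as stacked bars that each sum to the whole. The fibrillar share is smallest in the MC903 libraries (43.0 to 51.3%) and the type IV share is largest there (7.70 to 7.87%).

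Chains of the same trimer kept or changed their proportion. Col1a1 per Col1a2, the chains of type I, was 0.822 to 0.845 in control, 0.823 to 0.894 in MC903 and 0.775 to 0.858 with paeonol, ranges that overlapped although both genes had fallen more than 3-fold. Col1a1 per Col3a1, type I against type III, was 0.644 to 0.653 in control, lower in MC903 at 0.474 to 0.528, and 0.541 to 0.633 with paeonol, without overlap. Col4a3 per Col4a4 was 0.611 to 0.881, 0.417 to 0.494 and 0.473 to 0.765, and Col9a1 per Col9a2 was 1.11 to 1.19, 1.43 to 2.63 and 1.11 to 1.84, with the paeonol libraries overlapping both other groups in each ratio.

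Genes that make, process, bind or degrade collagen were read from lists of known function. Beside the counts from these lists, 46.8%, 29.7% and 30.9% of all genes were called in the 3 comparisons. Of 20 genes for collagen synthesis and folding 9 fell and 5 rose in MC903 (median -0.27), 1 rose and 3 fell with paeonol against MC903 (median 0.00), and in paeonol against control 3 were higher and 12 lower (median -0.33; 7 lower without the second control library). The 1 gene that rose, P3h2, a prolyl 3-hydroxylase (adjusted p = 0.0329), did not pass in the blocked fit (0.0518), in the fit of the 2 groups (0.0503), without any 1 MC903 library (0.0698, 0.0924 and 0.0657) or without the first or the third paeonol library (0.0657 and 0.105). Plod3, a lysyl hydroxylase and 1 of the 3 that fell (adjusted p = 0.0179), did not pass without the third MC903 library (0.0682) or the third paeonol library (0.0579). P4hb, the shared subunit of prolyl hydroxylase and a general folding enzyme, rose in MC903 (0.73, adjusted p = 3.47e-06), as did Plod1, a lysyl hydroxylase (0.76), and P4ha3, a catalytic prolyl hydroxylase subunit (2.41), while P4ha2, another such subunit, fell (-0.84). Plod1 stood at 37.3, 39.4 and 40.1 CPM in control, 63.1, 69.7 and 65.7 CPM in MC903 and 27.9, 29.4 and 23.1 CPM with paeonol, the order of Col4a1. It fell with paeonol by 1.3 on the log2 scale (adjusted p = 4.84e-06).

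Of 14 genes for propeptide removal and cross-linking 9 fell and 1 rose in MC903 (median -0.75), 5 rose and 4 fell with paeonol (median 0.36), and 10 were lower than control with paeonol (median -0.68). Loxl4, a cross-linking lysyl oxidase, fell and rose (-1.71 and 0.88), as did Adamts14, a propeptidase (-1.88 and 1.07), Pcolce2, an enhancer of propeptide removal (-1.31 and 0.63), and Sparc, a collagen-binding matrix protein (-1.42 and 0.58). Bmp1 and Adamts2, both propeptidases, fell with paeonol against MC903 (-0.52 and -0.63).

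Of 7 genes for collagen degradation 4 rose in MC903 and none fell (median 0.88), and 6 fell with paeonol against MC903 (median -1.31). Mmp13, the main collagenase of mouse, stood at 5.22, 6 and 7.67 CPM in control, 364, 449 and 684 CPM in MC903 and 51.8, 108 and 204 CPM with paeonol, so that no groups overlapped. Its log2 change was 6.31 ± 0.64 in MC903 (adjusted p = 0.000247), and it fell by 2.04 with paeonol (adjusted p = 0.027) but stayed 4.27 above control on the log2 scale (adjusted p = 0.00225). Mmp9, a gelatinase that neutrophils and macrophages carry, stood at 11.0, 11.7 and 8.97 CPM in control, 92.4, 71.6 and 32.7 CPM in MC903 and 6.31, 5.33 and 3.36 CPM with paeonol. Mmp8, the neutrophil collagenase, rose in MC903 (3.95) and fell with paeonol (-2.95), and Ctsk, a collagen-cleaving cathepsin, did so too (0.88 and -1.31). Of these 7 genes 1 was higher and 2 lower in paeonol against control (median -0.30), and 4 were lower there in DESeq2, with library totals alone, as a block, in the fit of the 2 groups and without the third MC903 library. Without the first control library or any 1 paeonol library 1 was lower: the call of Mmp14, a membrane-bound collagenase (adjusted p = 0.0326), ended there (0.121, 0.0607, 0.0732 and 0.105) and without the second control library (0.0892). These are messenger levels, and collagen protein was not measured here.

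The counts of receptor and TGF-β genes below stand beside 46.8%, 29.7% and 30.9% of all genes called in either direction in the 3 comparisons. Of 10 collagen receptor genes 3 rose and 1 fell in MC903 (median 0.01), 1 rose and 4 fell with paeonol (median -0.23), and 1 was higher and 2 lower with paeonol against control (median -0.23). The 2 lower became 4 with library totals alone, and 1 in the blocked fit and without the second or the third control library, any 1 MC903 library, or the second or the third paeonol library. The call that ended in those was Lair1 (adjusted p = 0.0369, and 0.052 to 0.135 without those libraries). It also ended in the fit of the 2 groups alone (adjusted p = 0.0766). Ddr1, a receptor kinase of epithelium, fell and rose (-0.57 and 0.59), and Lair1, an inhibitory receptor of leukocytes, rose and fell (1.56 and -2.39). Adgrg1, an adhesion receptor for type III collagen, rose in MC903 (0.85), and Itgb1, the integrin chain shared by collagen receptors, fell with paeonol (-0.44). Of 10 genes of the TGF-β pathway, a main inducer of fibrillar collagen genes, 3 rose and 3 fell in MC903 (median 0.04), 2 rose and 4 fell with paeonol (median -0.15; 1 and 2 without the second MC903, the third MC903 or the first paeonol library), and 3 were lower with paeonol against control (median -0.16). The ligand Tgfb1 rose and fell (0.63 and -0.66), Tgfb3 fell and rose (-1.19 and 0.67), Tgfb2 fell (-1.15) and the signal transducer Smad3 fell (-0.71), both without a call in paeonol against MC903, and the receptor Tgfbr2 rose and fell (0.59 and -0.71).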

How the data were processed

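Ear messenger RNA was measured in 9 libraries, 3 per group, with groups taken from the treatment label of each sample. The tools listed, per the submitters' processing notes, are HISAT2 2.0.4, StringTie 1.3.4d and cutadapt, on GRCm38, with annotation and use of strand not given in the sources used here. Deposited by the authors were whole numbers per gene, taken as estimated counts, of 54.26 to 57.75 M per library, which pile up at multiples of 4. The floor was therefore set at 12 counts per library, and ratios of low counts carry exact Poisson 95% intervals on counts divided by 4; both cover counting error only. All 9 libraries were fitted together in edgeR 4.0.16 (R 4.3.3; TMM scaling, factors 0.942 to 1.09; filterByExpr with minimum count 10; robust quasi-likelihood F test, two-sided), with Benjamini-Hochberg adjustment over 21925 genes; a standard error is the change divided by the root of its F value. The calling was tested on simulated data.

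Symbols and lengths come from GENCODE M21. The length is that of the principal transcript. Promoter windows come from RefSeq. All collagen genes were accounted for, with values per library for 26 set genes and the largest called changes, and up to 4 genes of smallest p per other list. The members and lists were chosen with earlier results of these data known. Deviations of same-numbered libraries from their group means correlated at -0.0113 to 0.04. With 3 libraries per group this cannot exclude that equal numbers share an animal, litter or day, which the labels do not state. Alternatives were DESeq2 1.42.0, edgeR with DESeq2's size factors, library totals alone, no filter, a mean CPM of at least 1, the replicate number as a block, counts divided by 4, fits of 2 groups and each library left out.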

Additional observations from a re-analysis of the deposited data

How the results depend on the processing

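Leaving out each library in turn gave 6 to 7 collagen genes higher and 32 to 34 lower in MC903 against control, 21 to 26 higher and 5 to 6 lower in paeonol against MC903, and 1 to 3 higher and 23 to 31 lower in paeonol against control. The 2 genes higher in the last comparison, Col6a4 and Col18a1, became 1 with library totals alone and with a mean CPM of at least 1, which leaves out Col6a4. With the replicate number as a block the counts were 6 and 33, 25 and 6, and 2 and 29, and DESeq2 gave 6 and 33, 25 and 6, and 2 and 33. Library totals alone moved the median of all genes to -0.205 in MC903 and -0.197 in paeonol against control.

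Over all alternatives the endothelial markers that rose in MC903 numbered 0 to 3 and those that fell 1 to 3, the mural markers that rose 1 to 3, the basal keratinocyte markers that fell 2 to 6, the adipocyte markers that rose with paeonol against MC903 3 to 5, and the TGF-β genes lower with paeonol against control 3 to 5. The sign turned only in changes without a call. With library totals alone these were Col12a1 in MC903 (-0.007) and in paeonol against control (-0.023) and Col6a3 in paeonol against MC903 (0.013). With 1 library left out the ranges that held both signs were, in paeonol against MC903, -0.09 to 0.095 (Col6a3), -0.35 to 0.233 (Col6a5), -0.035 to 0.262 (Col5a2), -0.031 to 0.233 (Col16a1), -0.043 to 0.184 (Col25a1), -0.096 to 0.049 (Col12a1) and -0.26 to 0.089 (Col28a1), and, in paeonol against control, -0.579 to 0.032 (Col10a1) and -0.482 to 0.024 (Col2a1). The cause was not tested.

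Without division by length the fibrillar share was 62.2% in control, and the type IV share 3.24%, 9.10% and 3.37% in control, MC903 and paeonol. With all annotated exons as the length, an alternative chosen after seeing the data, the shares were 54%, 40.6% and 47.3% (fibrillar), 3.59%, 9.89% and 3.69% (type IV) and 19.5%, 24.3% and 25.6% (basement membrane zone). Scarce genes are limited by depth, since a single step of 4 counts is a large part of their level.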
